A study of Mus musculus with 3 samples.

Results

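The 10 genes described here, Col16a1, Gm12970, 1700021J08Rik, 4930515B02Rik, 9530002B09Rik, Sh3bgrl3, Pdik1l, Zfp990, Zbtb40 and Tceanc2, all lie on mouse chromosome 4. They were picked by symbol from 32285 measured genes, of which 1744 lie on chromosome 4, because their levels in testis cells of a Tex10 conditional knockout library were far from those of both wildtype libraries. The knockout levels that chose them are therefore given as a description, with no test. Testis cells of adult C57BL/6N mice were dissociated with collagenase IV and profiled by droplet single-cell RNA sequencing, which counts the 3′ ends of transcripts as unique molecular identifiers (UMIs). There were 3 libraries. Wildtype 1 and wildtype 2 each came from 1 mouse, and the knockout library pooled cells of 2 mice with a conditional deletion of Tex10, in proportions not given in the sources used here. The Cre driver, the cell type it acts in and the deleted exons were likewise not given. With 1 knockout library, no difference between genotypes could be tested, and the spread between knockout mice is unknown.

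In the seminiferous tubule, spermatogonia divide, enter meiosis as spermatocytes, and leave it as haploid round spermatids that elongate into sperm. Each step has its own transcript set, and many noncoding RNAs and genes with other functions in the body are transcribed in spermatids. Tex10 encodes a nuclear protein found with PELP1 and SENP3 in a complex that acts in ribosome assembly. Of the 10 genes, Col16a1 encodes the alpha chain of type XVI collagen, an extracellular matrix collagen associated with fibrils. Zbtb40 and Zfp990 encode zinc finger proteins, the former with a BTB domain. Sh3bgrl3 encodes a small protein with a thioredoxin fold, Pdik1l a serine/threonine kinase, and Tceanc2 a protein with a domain of the elongation factor TFIIS. 9530002B09Rik is annotated as protein coding. Gm12970 and 1700021J08Rik are annotated as antisense noncoding genes and 4930515B02Rik as an intergenic noncoding gene.

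The libraries held 9967, 10153 and 12918 barcodes in the order wildtype 1, wildtype 2, knockout, and 93418341, 96001773 and 147783171 UMIs. After filters, 7484, 7671 and 11053 barcodes were kept, of which 54.5%, 39.8% and 64.2% fell in clusters of few UMIs that were kept out of the cell classes. Between 17 and 20 kept barcodes were shared by any pair of libraries. Cells were clustered without the 10 genes and named by markers as spermatogonia, early spermatocytes, late spermatocytes, round spermatids and elongating spermatids. Each of these 5 classes held 226 to 1881 cells in every library, and knockout cells were deeper, with a median of 15934 UMIs per elongating spermatid against 10649 and 8301. Levels below are UMI counts scaled to a common class total (CPM, counts per 1000000), always in the order wildtype 1, wildtype 2, knockout. Intervals are exact 95% intervals that cover counting error only, not differences between mice. Tex10 itself was at 143, 124 and 131 CPM in spermatogonia, 56.8, 54.1 and 47.5 CPM in late spermatocytes, and 19.2, 21.7 and 13.9 CPM in round spermatids. Since a 3′ count may lie outside the deleted part, these levels do not check the genotype labels.

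The positions of the genes and the sequences that bear on how their reads can be read are as follows, in build GRCm38 with GENCODE M21 annotation. Col16a1 lies at chr4:130047840-130099283 on the plus strand, and Gm12970 at chr4:130811617-130812326 on the minus strand. 1700021J08Rik lies at chr4:117002166-117003012 on the minus strand. Both antisense genes lie opposite a coding gene, Gm12970 opposite Sdc3, a cell surface heparan sulfate proteoglycan, and 1700021J08Rik opposite Hectd3, a ubiquitin ligase. The setting for strand in the authors' counting was not given in the sources used here, so the counts of each antisense gene and its partner are uncertain. The last 150 bases of each annotated RNA, where a 3′ library reads, are shown for these genes from GENCODE M21 and GRCm38, 5′ to 3′ on the minus strand, with capitals for bases that lie opposite a coding exon of the partner.
Gm12970, chr4:130811617-130811766: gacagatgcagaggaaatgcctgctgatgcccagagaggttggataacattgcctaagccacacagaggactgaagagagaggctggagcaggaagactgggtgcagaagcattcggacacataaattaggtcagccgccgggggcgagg
1700021J08Rik, chr4:117002166-117002315: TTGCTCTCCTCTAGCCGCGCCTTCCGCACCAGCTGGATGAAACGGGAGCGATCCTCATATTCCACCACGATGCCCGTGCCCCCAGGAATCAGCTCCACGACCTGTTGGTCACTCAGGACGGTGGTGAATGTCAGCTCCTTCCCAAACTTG
The shown end of Gm12970 holds no base opposite a coding exon, and 48 bases elsewhere in its 581-base transcript lie opposite an untranslated part of Sdc3. All 150 shown bases of 1700021J08Rik lie opposite Hectd3 coding sequence, as do 298 of its 575 bases in all.

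Of 31-base words in the last 500 bases of each annotated transcript, Col16a1, 4930515B02Rik, Zbtb40 and Tceanc2 shared none with another gene on either strand. Zfp990 shared 570 of 1164 words (49.0%) on the same strand with 505 other genes, led by the zinc finger genes Zfp987 and Zfp534, so its counts could be split or dropped by the authors' counting and are uncertain. Sh3bgrl3 shared 158 of 768 words with the opposite strand of Ubxn11. RefSeq promoters were at hand for 6 of the 10 genes. The 250 bases before the RefSeq start are shown for Col16a1, the gene with the largest loss, and for 4930515B02Rik and 9530002B09Rik, a pair of genes near zero in wildtype cells. They come from RefSeq promoters of GRCm38.p6, 5′ to 3′ on the plus strand, with capitals for a match to TGACGTCA, the cyclic AMP response element.
Col16a1, chr4:130047590-130047839: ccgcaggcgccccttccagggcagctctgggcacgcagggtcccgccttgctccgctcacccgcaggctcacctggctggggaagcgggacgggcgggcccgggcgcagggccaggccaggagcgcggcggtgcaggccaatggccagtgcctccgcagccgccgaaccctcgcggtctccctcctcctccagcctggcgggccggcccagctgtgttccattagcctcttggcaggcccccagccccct
4930515B02Rik, chr4:140872443-140872692: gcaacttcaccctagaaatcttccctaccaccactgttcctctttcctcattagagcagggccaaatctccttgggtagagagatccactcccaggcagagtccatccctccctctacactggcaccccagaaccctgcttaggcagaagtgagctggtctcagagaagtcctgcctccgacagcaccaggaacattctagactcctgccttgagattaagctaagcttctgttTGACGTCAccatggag
9530002B09Rik, chr4:122689009-122689258: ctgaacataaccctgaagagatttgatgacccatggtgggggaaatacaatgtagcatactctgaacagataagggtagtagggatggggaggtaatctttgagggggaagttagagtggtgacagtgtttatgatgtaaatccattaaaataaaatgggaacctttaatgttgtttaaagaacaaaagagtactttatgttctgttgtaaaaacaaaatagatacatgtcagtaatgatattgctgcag
In all, 3 motifs were searched on both strands of the 300 bases around each start: TGACGTCA, which reads the same on both strands, the MYB motif AACNGTT and the TATA box TATAAA. They were held by 1.79%, 4.45% and 13.6% of 32851 RefSeq promoters of the same length. Among promoters of the 10 genes there was 1 match, TGACGTCA in 4930515B02Rik, whose first base lies at -16 from the start. The Col16a1 promoter was 74.3% G or C and that of 9530002B09Rik 38.7%, beside a median of 52.7% over all promoters, of which the 10th and 90th percentiles were 39.7% and 69.7%.

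A gene was called different in a class by a size rule: at least 2-fold against each wildtype library with 1 CPM added, in the same direction, with the smaller of both log2 ratios no less than 2 times the difference between wildtype 1 and wildtype 2, and at least 20 CPM in some library. By this rule 9 of the 10 genes were tested and all 9 called in at least 1 germ cell class, 7 higher and 2 lower in the knockout library, beside 1.25% of 10426 genes tested in all, 0.633% higher and 0.614% lower. By class, 1 of them was called higher in spermatogonia (0.271% of all tested), 1 lower in early spermatocytes (0.16%), and 4 higher in late spermatocytes (0.334%). In round spermatids 4 were higher (0.5%) and 2 lower (0.686%), and in elongating spermatids 3 higher (0.726%) and 1 lower (0.693%). That contrast chose the genes, so nothing is read from these counts. Zfp990 never reached 20 CPM in a class and was not tested. The genes fell into 3 patterns in the plot of levels along germ cell development: genes with a wildtype peak that was missing (Col16a1, Zbtb40, Zfp990), genes near zero in wildtype that appeared (Gm12970, 1700021J08Rik, 4930515B02Rik, 9530002B09Rik), and genes active in both genotypes whose level stayed high for longer or was higher throughout (Sh3bgrl3, Pdik1l, Tceanc2).

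**Figure D1:**
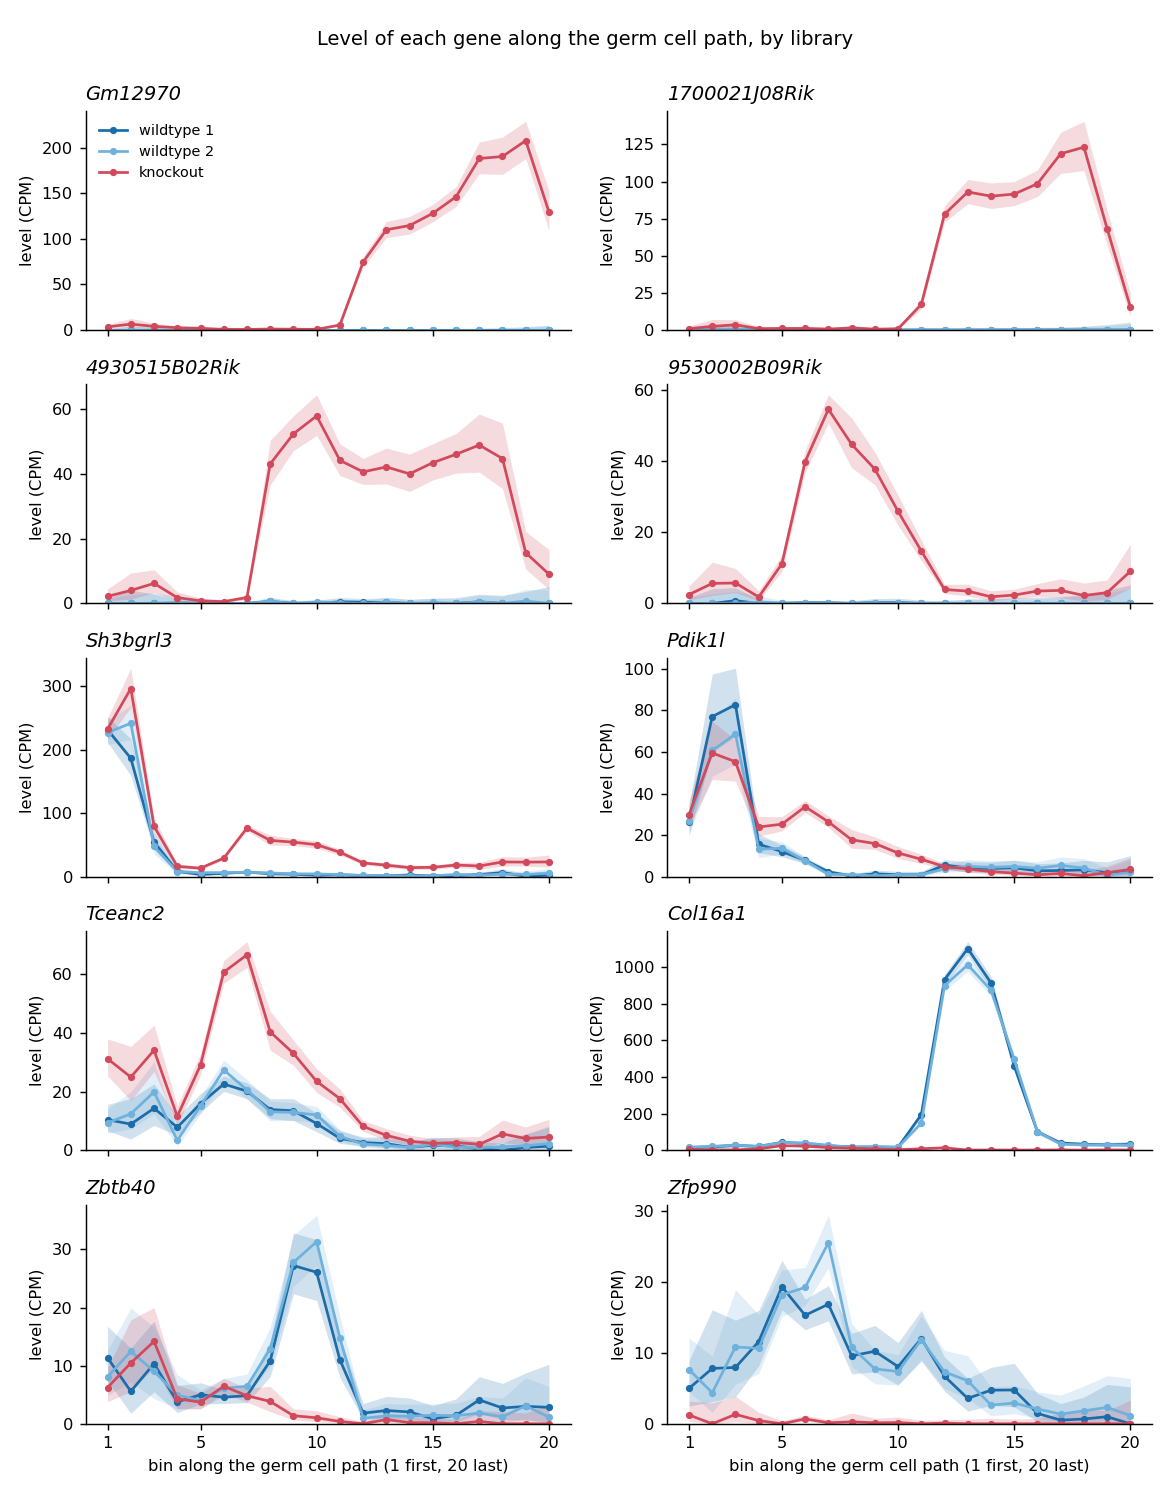
Level of each of the 10 genes (CPM, vertical axis) in 20 successive bins of germ cells from spermatogonia to elongating spermatids (horizontal axis), for wildtype 1, wildtype 2 and the knockout library, with shaded 95% Poisson intervals that cover counting error only. The wildtype lines lie close together, while the knockout line lacks the Col16a1 peak of 1100 and 1011 CPM in bin 13 and carries peaks of 208 CPM for Gm12970 and 123 CPM for 1700021J08Rik that the wildtype lines do not have.

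Col16a1 showed the largest loss. In elongating spermatids it was at 530, 467 and 1.85 CPM, from 8905, 9086 and 54 UMIs. The wildtype mean was 499 ± 44.8 CPM (SD, n = 2) and the knockout level, with an interval of 1.39 to 2.41 CPM, was 0.371% of it (log2 ratio -7.45). Round spermatids held 320, 211 and 9.59 CPM, so both wildtype libraries were far above the knockout library in both spermatid classes. Earlier cells differed less: early spermatocytes held 27.4, 30.9 and 10.8 CPM and late spermatocytes 30.1, 30.8 and 18.7 CPM, of which the first but not the second met the size rule. The round spermatid class joins 2 successive clusters that the libraries filled unequally, and the finer steps show when the wildtype peak begins. In 12 clusters ordered from spermatogonia (1) to the last elongating spermatids (12), wildtype Col16a1 was at 24.1 and 21.8 CPM in cluster 7, the first of the round spermatids. It then reached 623 and 518 CPM in cluster 8 and 1067 and 1006 CPM in cluster 9, before 31.9 and 29.1 CPM in cluster 12. The knockout library held 25.6 CPM in cluster 4, among late spermatocytes, 4.69 CPM in cluster 7, 14.1 CPM in cluster 8 and 1.79 to 1.90 CPM from cluster 9 on. Thus the meiotic level of the collagen gene was partly kept while its spermatid peak was nearly absent. Transcripts of elongating spermatids were also counted in other wildtype cells: protamine and transition protein genes (Prm1, Prm2, Tnp1, Tnp2), which package sperm DNA, had 0.526% to 1.01% of their elongating level in late spermatocytes, and Col16a1 5.69% and 6.60%. In spermatogonia the corresponding figures were 1.49% to 2.73% for the 4 genes and 2.90% and 4.001% for Col16a1. The part of such transcripts in the Col16a1 difference of early cells was not tested.

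Zbtb40 had a smaller peak, earlier in development. Round spermatids held 15.7, 21.04 and 0.552 CPM, the last from 14 UMIs, 0.0301 times the wildtype mean (log2 ratio -3.64). Wildtype 1 alone would not have reached 20 CPM, so the call depends on wildtype 2. The libraries were alike earlier: in clusters 3, 4 and 5, from early to late spermatocytes, the knockout level was 1.00, 1.01 and 1.07 times the wildtype mean. It separated in cluster 6, the last late spermatocytes, at 13.0, 16.9 and 3.96 CPM, and in cluster 7, at 26.2, 29.0 and 0.987 CPM. Zfp990 was low in all libraries but lower in knockout cells in all 5 classes. Late spermatocytes held 15.03, 18.1 and 0.357 CPM from 535, 575 and 15 UMIs, a pooled wildtype level 46.2 times the knockout level (95% interval 27.9 to 82.8). Early spermatocytes held 13.8, 11.1 and 0.460 CPM and spermatogonia 6.38, 7.47 and 1.06 CPM, so for Zfp990 the knockout library was below both wildtype libraries before meiosis as well.

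Gm12970 was the most abundant of the genes that appeared. It had no UMI in any of the 5 germ cell classes of either wildtype library. In knockout elongating spermatids it was at 138 CPM (134 to 142), from 4033 UMIs. Against a floor of 3 UMIs over both wildtype libraries, which is 0.0827 CPM, this is at least 1670-fold higher, and in round spermatids, at 26.9 CPM, at least 260-fold. Its rise along development began in the same cluster in which wildtype cells start Col16a1: it was at 1.32 CPM in cluster 7, 50.4 in cluster 8, 109 in cluster 9 and 184 in cluster 12. Sdc3, the coding gene on the other strand, had 3, 3 and 450 UMIs in elongating spermatids, or 0.179, 0.154 and 15.4 CPM. Both members of the overlapping pair were thus high in the knockout library alone, and reads assigned to the wrong strand were not tested. 1700021J08Rik followed a similar course, with no UMI in wildtype elongating spermatids and 92.1 CPM (88.7 to 95.6) in the knockout, at least 1113-fold higher. It was at 60.1 CPM in cluster 8, 111 in cluster 11 and 75.4 in cluster 12. Hectd3, opposite it, had 2, 0 and 31 UMIs in elongating spermatids. In knockout spermatogonia, early and late spermatocytes, Gm12970 had 2.29%, 2.13% and 0.602% of its elongating level and 1700021J08Rik 1.72%, 1.60% and 1.01%. The protamine and transition protein genes had 1.67% to 2.56%, 1.52% to 2.31% and 0.551% to 0.803% there. Before the spermatid stage both noncoding genes were thus within the range of these sperm-packaging genes, except 1700021J08Rik in late spermatocytes, which was above it.

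4930515B02Rik and 9530002B09Rik appeared earlier. In round spermatids 4930515B02Rik was at 0.237, 0.243 and 47.6 CPM (44.9 to 50.3 in the knockout), from 3, 4 and 1206 UMIs. The knockout level was 198 times the pooled wildtype level (95% interval 95.6 to 493), and in elongating spermatids, at 0.179, 0.206 and 40.5 CPM, 209.6 times (101 to 523). The gene went from 0.771 CPM in cluster 5 to 39.0 CPM in cluster 6, at the end of meiosis, and 54.9 CPM in cluster 7. In late spermatocytes it had 22.3% of its elongating level, well above the protamine and transition protein genes. 9530002B09Rik lies at chr4:122689275-122705129 and, among the germ cell classes of the knockout library, was highest in late spermatocytes. Late spermatocytes held 0.169, 0.157 and 41.9 CPM (40.0 to 43.9 in the knockout) from 6, 5 and 1762 UMIs, a knockout level 257 times that of the pooled wildtype (143 to 515). It was at 3.86 CPM in cluster 3, 28.2 in cluster 4, 51.4 in cluster 5 and 7.66 in cluster 8, and at 3.02 CPM in elongating spermatids. Knockout round spermatids still held 426 UMIs of 9530002B09Rik, found in 40.8% of cells, with 25.9 and 14.7 CPM in bins 10 and 11. So the peaks of these 4 genes came in succession, with 9530002B09Rik in bin 7, 4930515B02Rik in bin 10, 1700021J08Rik in bin 18 and Gm12970 in bin 19 of the 20 bins.

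Among the germ cell classes, Sh3bgrl3 was highest in spermatogonia in all 3 libraries, at 229, 231 and 241 CPM. Cells outside the germ line held Sh3bgrl3 too, with a UMI in 47.9%, 23.2% and 57.4% of peritubular myoid cells. The low-UMI cluster closest to macrophages, with 15, 16 and 60 barcodes, held 264, 228 and 1015 CPM. In wildtype germ cells Sh3bgrl3 was at 5.70 and 6.32 CPM by the late spermatocytes and 2.93 and 3.89 CPM in round spermatids. The knockout library held 48.2 CPM in late spermatocytes, 8.02 times the wildtype mean, and 37.7 CPM in round spermatids, 11.1 times. Over clusters 1 to 5 the ratio went from 1.05 through 1.32, 1.70 and 3.03 to 8.77, and it was 11.7 in cluster 6 and 12.01 in cluster 7. The ratio was thus near 1 in spermatogonia and largest from the end of meiosis on. Ubxn11, on the other strand, was at 26.3, 23.1 and 15.1 CPM in spermatogonia. Pdik1l was at 30.8, 33.3 and 31.4 CPM in spermatogonia and 31.6, 29.2 and 33.6 CPM in early spermatocytes, a class that joins unlike clusters. Cluster 2 held 86.8, 65.7 and 59.4 CPM, where the knockout was nearer to wildtype 2 than the wildtype libraries were to each other. Cluster 3 held 15.1, 14.9 and 24.5 CPM, with the knockout highest. Late spermatocytes held 5.11, 4.90 and 27.4 CPM, 5.46 times the wildtype mean, and the ratio peaked at 17.7 in cluster 6. In elongating spermatids the order was opposite, at 3.87, 4.21 and 2.12 CPM, a level that the size rule did not test. Tceanc2 was higher in knockout cells at every stage, at 9.38, 9.51 and 30.4 CPM in spermatogonia (3.21 times the wildtype mean) and 19.6, 20.6 and 55.6 CPM in late spermatocytes (2.77 times). Its course kept the wildtype shape: across the 20 bins the correlation of the knockout profile with wildtype 1 and 2 was 0.937 and 0.962, beside 0.954 between the wildtype libraries. For Sh3bgrl3 the same values were 0.845 and 0.866 beside 0.971, for Pdik1l 0.570 and 0.490 beside 0.969, and for Col16a1 -0.180 and -0.172 beside 0.997. These correlations run over bins of the same libraries and are given as descriptions.

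The genes with the most similar course across the 20 bins were, for Col16a1 over both wildtype libraries (40 values, 11412 genes compared), Jazf1 (r = 0.954) and Gm47658 (0.946). For Zbtb40 they were Rtf2 (0.926) and Gnpda2 (0.921), for Zfp990 Srpk1 (0.936) and Gatad1 (0.926), and for Pdik1l they included Itprid2 (0.924). In the knockout library (20 values, 11159 genes) Gm12970 was most like Nudt16l2 (0.993) and 1700008B11Rik (0.991), and 1700021J08Rik most like Dscaml1 (0.990) and Gm34035 (0.989). 4930515B02Rik was most like 4930572K03Rik (0.988) and 4430402I18Rik (0.980), and 9530002B09Rik most like Slc22a16 (0.975) and Cfap161 (0.975). Sh3bgrl3 was nearest to Steap1 (0.940) and Rnf31 (0.937), and Tceanc2 to Ide (0.976) and Chchd7 (0.971). Of the genes named here, Chchd7 alone lies on chromosome 4.

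The 10 genes lie between 58.7 and 97.1 Mb from the start of Tex10 at chr4:48430858-48473459, with Tceanc2 nearest and Zfp990 farthest. Chromosome 4 had 29 of 674 tested genes called (4.3%), and without the 9 called members 20 of 665 (3.01%), beside 1.04% of genes on all other chromosomes. Chromosome 9, with 30 of 607 (4.94%), and chromosome 14, with 18 of 413 (4.36%), had similar shares. On chromosome 4 the calls were uneven: 11 of 100 genes (11%) between 130 and 140 Mb, 6 of 87 (6.90%) between 120 and 130 Mb, 3 of 86 between 40 and 50 Mb, which holds Tex10, and 0 below 40 Mb. Of the 11 genes between 130 and 140 Mb, 6 were not among the 10 described here, and 8 of the 11 were higher. Between 120 and 130 Mb, 5 of the 6 called genes were not among the 10. Since the 10 genes were chosen for large differences, they raise these shares. Beyond the 10 genes, calls on chromosome 4 were 10 higher and 10 lower (1.5% each). The largest increases were in Cachd1, a calcium channel regulator, at 1.11, 1.64 and 25.5 CPM in round spermatids, Mrto4, a ribosome assembly factor, at 30.7, 30.95 and 134 CPM there, and Tent5b at 6.26, 6.94 and 22.9 CPM in late spermatocytes. The largest decreases were in 1700080G11Rik, at 44.1, 43.0 and 9.25 CPM, Gm12925, at 67.7, 67.2 and 21.9 CPM, both in elongating spermatids, and Gm13306, at 27.5, 31.9 and 7.02 CPM in round spermatids. The choice of the 10 genes states no threshold: the smaller of the log2 ratios to the wildtype libraries was 1.58 for Tceanc2, just inside the list, and 3.33 for Cachd1 and 2.08 for Mrto4, outside it.

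**Figure D2:**
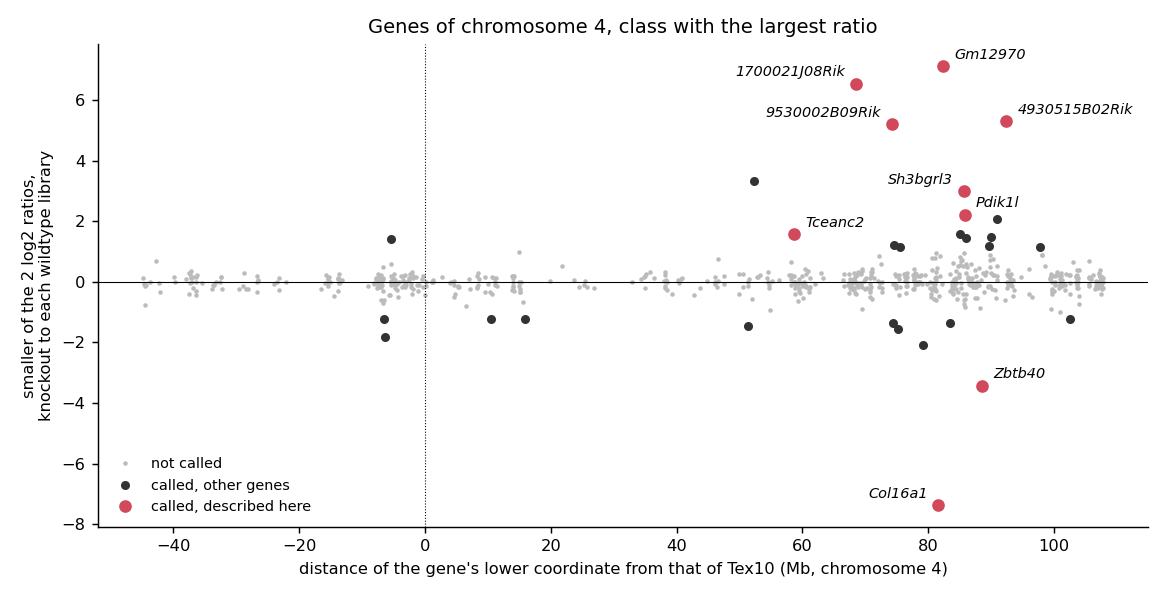
For each of the 674 tested genes of chromosome 4, the smaller of its log2 ratios to the wildtype libraries (vertical axis) in the class where that was largest, against its distance from the start of Tex10 in Mb (horizontal axis), with the 9 tested genes of the 10 named (Zfp990 was not tested). Calls in both directions are spread from near Tex10 to the far end. With the chosen genes counted, they are densest in the stretch that begins near Col16a1 at 81.6 Mb. Because those genes were chosen for large differences, they add to that density.

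For each of the 10 genes the nearest gene on each side with at least 20 CPM, in the class where the gene itself was highest, was examined, and the neighbours called were Gm12970, Col16a1 and Cap1. Col16a1 and Gm12970 are each other's neighbours by this rule, 712334 bases apart, and went in opposite directions in the same cells. On their outer sides Ptp4a2, a phosphatase, was at 1.46 times the wildtype mean and Rcc1, a chromatin-bound exchange factor, at 0.901 times, and neither was called. Cap1, an actin regulator 153918 bases from 9530002B09Rik, was at 66.7, 67.5 and 25.6 CPM in late spermatocytes and was called lower while 9530002B09Rik was higher. Cep85, 1069 bases from Sh3bgrl3, was at 1.63 times the wildtype mean in spermatogonia, and Stmn1, a microtubule regulator beside Pdik1l, at 2.05 times in early spermatocytes, with no call in those classes. Sh3bgrl3 and Pdik1l themselves were not called there either. In round spermatids Stmn1 was called higher, at 16.2, 17.6 and 49.4 CPM. Neighbours of 1700021J08Rik (Nasp 1.09), 4930515B02Rik (Ubr4 1.06 and Sdhb 0.912), Tceanc2 (Mrpl37 1.07 and Lrrc42 0.835) and Zbtb40 (Tex46 0.867 and 1700037C06Rik 1.12) stayed near the wildtype mean. Those of Zfp990 were at 0.645 (1700012P22Rik) and 1.73 times (Gm13166).

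Relatives of the 10 genes elsewhere in the genome were compared from family lists. In the SH3BGR family of 4 genes, the TFIIS domain list of 5, the FACIT collagens (9 genes) and the BTB zinc finger genes (40), the only genes called in any class were Sh3bgrl3, Tceanc2, Col16a1 and Zbtb40 themselves. Up to 17 BTB zinc finger genes were tested in a class, with a median log2 ratio of 0.07 in spermatogonia beside -0.01 over all genes tested there. Stk35, the kinase nearest to Pdik1l, was called in none of the 5 classes, with log2 ratios from -0.11 to 0.16. Of 18 zinc finger genes of distal chromosome 4 at most 2 were tested in a class, and none was called. Only 1 was tested in each class except round spermatids, where 2 were. The log2 ratio of that gene, or the median of both in round spermatids, was 0.37 to 0.98 by class. These values cover too few genes to describe the list. Over all genes tested the medians were -0.03 to 0.02.

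Because the knockout library pools 2 mice, each gene could be carried by all of its cells or by those of 1 mouse. Gm12970 had a UMI in 82.9% of knockout elongating spermatids (81.0% to 84.7%, exact binomial) and in 0 of 1349 and 0 of 1881 wildtype cells, which, by a floor of 3 cells, allows shares of cells with a UMI of up to 0.222% and 0.159% and does not bound the share of cells carrying the gene. In knockout peritubular myoid cells, a class outside the germ line taken as background without a check that it lacks the gene, the share was 2.13%. 1700021J08Rik had a UMI in 67.0% of the same spermatids, 4930515B02Rik in 75.4% of knockout round spermatids against 0.703% and 0.576%, and 9530002B09Rik in 71.5% of late spermatocytes against 0.829% and 0.542%. In myoid cells these genes had shares of 2.13%, 10.6% and 2.13%. Most knockout cells of these germ cell classes held a UMI of the gene. Depth sets such shares: after each cell was thinned to 2000 UMIs, the 4 genes were at 24.3%, 15.95%, 7.56% and 7.33%. Of the genes active in both genotypes, Sh3bgrl3 was found in 76.8% of knockout late spermatocytes against 22.4% and 18.5%, Pdik1l in 65.2% against 19.2% and 13.3%, and Tceanc2 in 80.9% against 52.6% and 41.8%. Thinned knockout shares were 7.79%, 5.04% and 9.16%. Few knockout cells held a UMI of the lost genes: Col16a1 was found in 60.3%, 52.3% and 3.20% of elongating spermatids (39.1%, 35.2% and 0.378% thinned), Zfp990 in 44.5%, 34.99% and 2.29% of late spermatocytes and Zbtb40 in 29.98%, 36.0% and 2.33% of round spermatids. Thinned shares were 1.94%, 3.71% and 0% for Zfp990 and 5.37%, 3.44% and 0.168% for Zbtb40. Thinning left out between 1 and 62 shallower cells of these classes in a library.

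To set the shares against depth, the share of cells with no UMI was compared with what 1 common level would leave at each cell's own depth, and with what would be left if 50% of the cells held all UMIs of the gene at 2 times the level. The proportions of the 2 pooled mice are unknown, and unequal splits were not compared. In knockout elongating spermatids 17.1% of cells had no Gm12970 UMI, beside 17.8% under a common level and 53.2% if 50% of cells carried the gene. For 1700021J08Rik the values were 33.0%, 28.0% and 56.0%, for 4930515B02Rik in round spermatids 24.6%, 23.1% and 55.3%, and for 9530002B09Rik in late spermatocytes 28.5%, 18.6% and 54.0%. Sh3bgrl3 (23.2%, 15.9% and 53.3%), Pdik1l (34.8%, 28.6% and 56.9%) and Tceanc2 (19.1%, 13.5% and 52.8%), all in late spermatocytes, showed the same order. In these classes, the observed share of all 7 genes lay nearer to that of a common level. For sparse genes the shares expected under a common level and with 50% carriers nearly coincide, so such values cannot tell these cases apart. Tceanc2 in elongating spermatids had 93.97% of cells empty, beside 93.88% and 94.15%. With such values included, 23 of 30 knockout shares of these 7 genes lay nearer to a common level, over all germ cell classes with at least 20 UMIs of the gene. The genes lower in the knockout library were left out of this count and of the count by cluster below. Among the other 7, knockout round spermatids had no Gm12970 UMI in 64.1% of cells, beside 39.3% under a common level and 60.1% if 50% of cells carried it, and no 1700021J08Rik UMI in 60.9%, beside 34.1% and 58.3%. Late spermatocytes had no 4930515B02Rik UMI in 72.4%, beside 60.0% and 70.04%. Each of these classes joins clusters before and after the gene appeared. A class mixes stages, which by itself leaves more empty cells than a common level does: in wildtype elongating spermatids, from 1 mouse each, 39.7% and 47.7% of cells had no Col16a1 UMI where a common level would leave 3.71% and 7.69%. Within single clusters with at least 100 UMIs of the gene, 42 of 47 knockout shares of the 7 genes lay nearer to the common level than to 50% carriers. Here too some expected shares lay close together, such as 79.5% and 82.0% for 4930515B02Rik in cluster 12. In cluster 10 9.94% of cells (7.39% to 13.0%) had no Gm12970 UMI, beside 10.0% under a common level, and in cluster 5 4.12% had no Sh3bgrl3 UMI, beside 5.66%. 9530002B09Rik was further above, at 12.9% beside 7.17% in cluster 5 and 38.2% beside 26.1% in cluster 4. The 5 exceptions were 1700021J08Rik in cluster 12, at 59.1% beside 51.0% under a common level and 64.3% if 50% of cells carried it, 4930515B02Rik in cluster 12, 9530002B09Rik in cluster 8, and Sh3bgrl3 in clusters 2 and 9. For residual Col16a1 transcripts of the knockout library, 24.2% of cluster 5 cells were empty, beside 24.3% under a common level and 55.5% if 50% of cells held them. Cluster 4 (29.7%, 28.5% and 57.4%), cluster 8 (64.0%, 60.9% and 70.8%) and all late spermatocytes (43.9%, 39.1% and 60.5%) also lay nearer to a common level. Nearer to 50% carriers were cluster 3 (75.6%, 70.3% and 76.1%), early spermatocytes (87.9%, 84.2% and 86.2%) and round spermatids (72.4%, 68.9% and 74.9%). Elongating spermatids did so too (96.80%, 96.69% and 96.77%), where the expected shares nearly coincide.

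**Figure D3:**
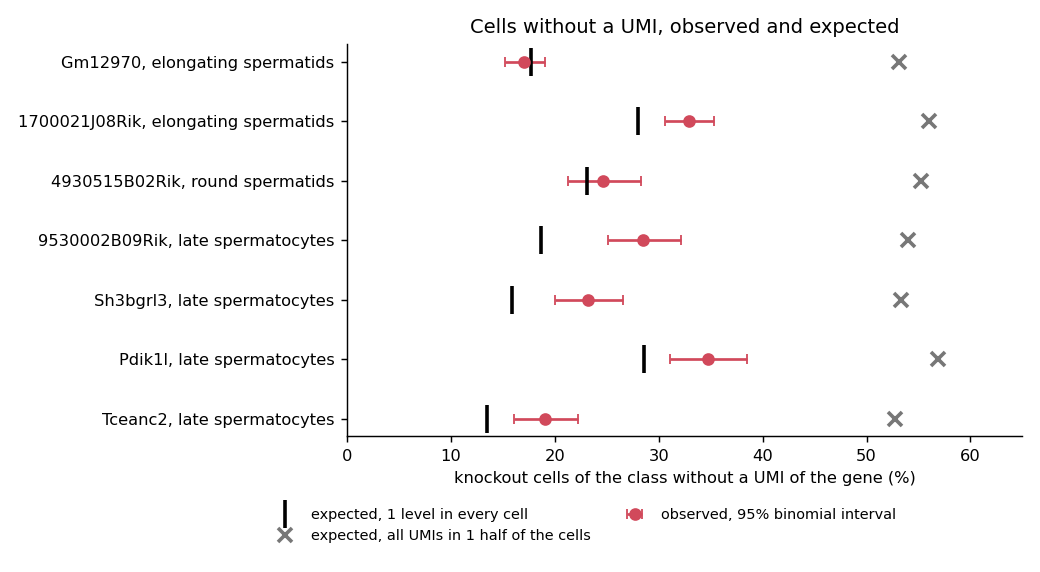
Share of knockout cells with no UMI (horizontal axis, percent) of each of the 7 genes that were higher in the knockout library, in the class where each was compared (vertical axis), as observed and as left by 1 common level in all cells or by all UMIs in 50% of the cells. The observed shares, 17.1% to 34.8%, lie nearer to the common level than to the 52.8% to 56.9% left when 50% of cells carry the gene. Smaller differences of level between cells are not drawn.

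The genes that appeared in spermatids were also counted cell by cell. Of 1593 knockout elongating spermatids, 552 (34.7%) had a UMI of all 3 of Gm12970, 1700021J08Rik and 4930515B02Rik, 539 had 2, 365 had 1 and 137 (8.60%) had none. If all cells carried the 3 genes at a common level, 35.01% would show all and 6.55% none at these depths, and if the same 50% of cells carried them 50.8% would show none. Among the 569 cells with at least 20000 UMIs, 1 had none of them (0.176%, interval 0.00445% to 0.975%). In knockout round spermatids, where Gm12970 and 1700021J08Rik lay mostly in the second of the pair of clusters, 20.8% of cells had all 3, beside 39.3% at a common level, and 13.3% had none, beside 9.30%. In the wildtype libraries 3 of 1349 and 4 of 1881 elongating spermatids had any. Pair by pair, Gm12970 and 1700021J08Rik were both found in 955 elongating spermatids, beside 1001 if independent at each cell's depth, a ratio of 0.954, and 669 if confined to the same 50% of cells. In cluster 10, where stages mix less, 354 cells had both, beside 366 and 221.

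Genes that were lost and genes that appeared were also found together where both were present. In cluster 5, the late spermatocytes with most UMIs, 138 of 194 knockout cells had both Col16a1 and 9530002B09Rik, beside 143 if independent. The corresponding counts were 144 beside 144 for Col16a1 with Sh3bgrl3, and 137 beside 138 for Col16a1 with Pdik1l. In elongating spermatids 48 cells had both Col16a1 and Gm12970, beside 48.0 if independent. Col16a1 had only 54 UMIs in that class, and the part of RNA from other cells in them was not tested. Over all 12 clusters, for pairs with at least 20 cells holding each gene, the ratio of observed to independent cells had a median of 0.94 over 120 knockout pairs of genes that were both higher and 0.94 over 52 pairs of 1 higher and 1 lower gene. In the wildtype libraries, each from 1 mouse, the median was 0.98 over all 93 such pairs in wildtype 1 and 0.94 over all 91 in wildtype 2. With both genes in the same 50% of cells, a median of 0.98 (range 0.52 to 1.88) would be expected over 176 knockout pairs. Over the wildtype pairs it would be 1.26 and 1.31, so the wildtype medians are no like reference. The knockout medians therefore cannot tell independent genes from genes confined to the same cells. No knockout pair had an interval wholly above 1. This does not tell the cases apart for pairs whose ratio expected with the same 50% of cells is below 1. An interval wholly below 1 was found for 13 knockout pairs, 9 of them in cluster 8, where the spermatid genes begin. There 80 cells had both Col16a1 and Gm12970 beside 110 if independent (0.73, interval 0.579 to 0.909), and 87 had both Col16a1 and 1700021J08Rik beside 114 (0.77, interval 0.614 to 0.945). In the same cluster Gm12970 and 1700021J08Rik, both of which appear there, were together in 169 cells beside 205 if independent. Cells before and after the start of these genes are joined in that cluster; the part of this in the lower ratios was not tested.

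**Figure D4:**
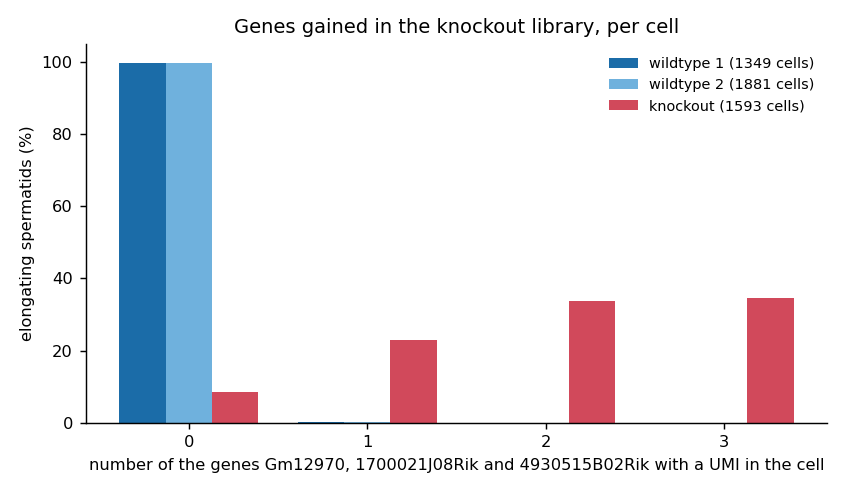
Percent of elongating spermatids (vertical axis) with a UMI of 0, 1, 2 or 3 of the genes Gm12970, 1700021J08Rik and 4930515B02Rik (horizontal axis), in each of the 3 libraries. In the knockout library 8.60% of cells have none and 34.7% all 3, while nearly all wildtype cells have none.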

How the data were processed

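Single-cell RNA was measured in 3 testis libraries prepared with the 10x 3′ v3.1 kit. The deposited matrices hold raw UMI counts per gene and barcode made by the authors; Cell Ranger 4.0.0, Seurat 4.0.5 and build mm10 are named in the submitters' processing notes. The strand setting is not given in the sources used here. Barcodes with at least 1000 UMIs, 500 genes and at most 10% mitochondrial UMIs passed. Automatic doublet calls marked at most 1 barcode a library, so the top 8% of doublet scores were left out. Cells were clustered (2000 variable genes without the 10 genes, 30 components, 15 neighbours, Leiden resolution 1, 29 clusters) and named by marker lists; clusters with a median under 3 times the lowest barcode total of the library (low-UMI clusters) stayed out of the classes. Clusters were ordered along a path through their centres, split into 20 bins, because diffusion pseudotime placed round spermatids (median 0.588) before early spermatocytes (0.691). Within each class the UMIs of a library were added up and divided by the class total (CPM). Scripts were checked on simulated data.

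The 10 genes and all lists were chosen with earlier results of these data known. Genes named besides the 10 are Tex10, the nearest neighbours of each gene with 20 CPM, the genes with the most similar profile, the called genes of chromosome 4 with the largest ratios, called members of the family lists, overlapping genes and the free-RNA genes, of which the last 2 kinds were named after values were seen; some genes that this rule names are not reported here. Alternatives covered the low-value filter, fold threshold, added CPM, scaling, each wildtype library left out, cell depth, doublets, low-UMI clusters and clustering with the 10 genes. Symbols matched GENCODE M21 for 32158 of 32285 genes. Analyses used Python 3.11.15, numpy 2.4.6, scipy 1.17.1, pandas 2.3.3, scanpy 1.11.5, leidenalg 0.10.2 and matplotlib 3.10.9.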

Additional observations from a re-analysis of the deposited data

Results flagged for a closer look

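The knockout difference of Pdik1l, the kinase gene, changed direction between germ cell classes. Its log2 ratio to the wildtype mean was 2.24 in late spermatocytes and 1.86 in round spermatids, above both wildtype libraries, and -0.69 in elongating spermatids, below both. The difference between the classes was not tested.

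Barcodes in the clusters of few UMIs, which no class holds, carried the same genes. In these barcodes of the knockout library Gm12970 was at 19.9 CPM and 1700021J08Rik at 18.0 CPM, with no UMI in wildtype barcodes of the same clusters. 4930515B02Rik was at 21.4 CPM beside 0.123 and 0.136 CPM, and 9530002B09Rik at 28.6 CPM beside 0 and 0.136 CPM. Sh3bgrl3 was at 90.7 CPM beside 30.9 and 25.8 CPM, Pdik1l at 16.1 CPM beside 3.94 and 5.56 CPM, and Tceanc2 at 31.04 CPM beside 10.2 and 12.3 CPM. What these barcodes are was not tested.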

How the results depend on the processing

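With 1 knockout library, differences between mice cannot be told apart from differences between genotypes, and 3′ counts of antisense and repeated genes may include reads of other genes. Under all 13 alternatives no log2 ratio of the 10 genes changed sign in a class where the gene was called; Pdik1l, not called in spermatogonia and early spermatocytes, ranged there from -0.08 to 0.03 and from -0.15 to 0.19. Of 16 calls of the 10 genes in a class, 15 held under all 13 and Zbtb40 in round spermatids under 12: without wildtype 2 it missed the 20 CPM minimum. The number of the 10 genes called in at least 1 germ cell class was 9, was 10 with no low-value filter or a filter of 10 CPM, where Zfp990 joined, and was 8 to 9 without a wildtype library. The genes called in spermatogonia, early spermatocytes, late spermatocytes, round spermatids and elongating spermatids numbered 27, 18, 44, 64 and 43; with no low-value filter 235, 82, 128, 181 and 127; with a 10 CPM filter 51, 29, 73, 101 and 77; and with a fold threshold of 1.5 90, 55, 110, 154 and 104. Without a wildtype library they were 47 to 55 in spermatogonia, 20 to 27 in early spermatocytes, 48 to 63 in late spermatocytes, 69 to 97 in round spermatids and 47 to 51 in elongating spermatids. Lower minimums test more genes; the cause of the other changes was not tested. Col16a1 in elongating spermatids ranged from -7.73 to -6.20 (log2) and Gm12970 from 4.84 to 8.12. Thinning and doublet settings moved 18 of 40 shares and 49 of 354 co-detection values; the co-detection values reported are those with no thinning, and those per cluster were added after the data were seen. No paired analysis was possible because the single knockout library has no partner.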

Other observations

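In the clusters of few UMIs, Col16a1 was not uniformly low in the knockout library. There were 4 low-UMI clusters whose markers were closest to round spermatids. In the one with the highest knockout level (168 knockout barcodes), chosen after its values were seen, it was at 605, 560 and 154 CPM in wildtype 1, wildtype 2 and the knockout, and 63 of the 168 knockout barcodes (37.5%) held a UMI. In the other clusters of that kind it was at 146, 113 and 64.3 CPM, at 166, 149 and 49.4 CPM, and at 208, 281 and 6.29 CPM. In the low-UMI clusters closest to elongating spermatids it was at 514, 521 and 7.09 CPM and at 86.6, 84.0 and 5.34 CPM. The knockout level was thus below both wildtype libraries in all of these clusters, by unequal amounts. The first knockout value is far above the 14.1 CPM of the highest knockout spermatid cluster of full depth. The origin of these barcodes was not tested.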
